A study of Mus musculus with 6 samples.

Results

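The B lineage commitment and receptor genes are 9 genes picked by symbol from the 23306 named genes of the table: the transcription factor genes Pax5 and Ebf1, the antigen receptor chain genes Cd79a and Cd79b, the signalling genes Blk and Blnk, the surrogate light chain genes Vpreb1 and Igll1, and Ms4a1, which encodes the surface protein CD20. All 9 were found, each on 1 row. PolyA RNA sequencing measured them in murine T-ALL, the acute lymphoblastic leukaemia of immature T cells, in 2 groups of 3 C57BL/6 tumour samples taken from bone marrow: isogenic leukaemias with wild-type Phf6 (WT) and with Phf6 knocked out (KO). Phf6, which encodes a nuclear PHD finger protein, was deleted by a Cre recombinase that tamoxifen switches on, with corn oil as the vehicle. The labels do not say which samples received the drug, so its effect and that of the deletion cannot be told apart. The sources used here give neither the promoter of the Cre nor the driver of the leukaemia, and they do not say that a group's libraries come from different mice. The p-values therefore measure the spread between these samples, which may be technical.

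B lymphocytes arise in the bone marrow. EBF1 and PAX5 are the DNA-binding factors that commit a progenitor to the B lineage and hold it there, and PAX5 keeps genes of other lineages silent. CD79A and CD79B are the signalling chains of the B cell receptor, and their phosphorylated tails recruit kinases such as BLK and the adaptor BLNK. Before a light chain is made, VPREB1 and IGLL1 pair with the heavy chain as a stand-in light chain in the pre-B cell receptor. Most of these genes are silent in normal T cells, although CD79A is found in some human T-ALLs.

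The promoters of 4 genes are shown. Of these, 2 belong to genes whose KO values all lay above their WT values: Blnk, which rose, and Cd79a, which did not pass the test. The other 2 belong to the surrogate light chain genes, which overlapped between the groups. Each window is the 250 bases before the RefSeq transcription start on GRCm38.p6, 5′ to 3′ on the gene's strand. Capitals mark the motif matches named after the sequences. Windows of 6 of the 9 genes were matched in the RefSeq table.
Cd79a (chr7:24897247-24897496, plus strand): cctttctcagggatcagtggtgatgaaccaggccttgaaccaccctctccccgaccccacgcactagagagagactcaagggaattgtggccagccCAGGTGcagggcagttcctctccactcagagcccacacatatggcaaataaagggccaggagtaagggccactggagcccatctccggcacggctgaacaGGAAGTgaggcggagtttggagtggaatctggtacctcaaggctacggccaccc
Blnk (chr19:40994222-40994471, minus strand): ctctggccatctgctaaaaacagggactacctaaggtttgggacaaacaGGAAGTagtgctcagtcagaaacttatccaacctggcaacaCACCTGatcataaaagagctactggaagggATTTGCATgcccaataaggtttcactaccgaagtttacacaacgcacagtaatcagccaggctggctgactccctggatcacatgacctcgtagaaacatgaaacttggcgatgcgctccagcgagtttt
Igll1 (chr16:16863986-16864235, minus strand): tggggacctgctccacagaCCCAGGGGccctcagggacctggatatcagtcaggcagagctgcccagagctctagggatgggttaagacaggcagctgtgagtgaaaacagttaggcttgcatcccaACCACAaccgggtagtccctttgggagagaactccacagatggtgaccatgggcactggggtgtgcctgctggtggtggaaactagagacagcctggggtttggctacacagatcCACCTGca
Vpreb1 (chr16:16869256-16869505, minus strand): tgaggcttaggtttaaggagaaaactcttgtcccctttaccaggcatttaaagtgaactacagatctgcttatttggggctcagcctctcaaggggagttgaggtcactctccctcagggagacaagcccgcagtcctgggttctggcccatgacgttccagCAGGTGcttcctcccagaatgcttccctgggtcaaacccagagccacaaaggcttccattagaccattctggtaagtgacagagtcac
In all, 6 motifs were searched on both strands of these windows and of 32851 windows of the same length. GGAAGT, the core bound by ETS factors, was present 54 bases upstream of the start in Cd79a and farther upstream in Blnk, and 19.7% of all windows held it. CAGGTG, an E-box bound by E2A (the product of Tcf3), was found in 4 of the 6 genes, which are the 4 shown, 154 bases upstream in Cd79a, 160 in Blnk (as CACCTG), 8 in Igll1 (as CACCTG) and 88 in Vpreb1, and in 17.2% of all windows. Blnk alone of the 6 genes held the octamer ATTTGCAT of POU factors, 130 bases upstream, which 1.60% of all windows held. In Igll1 the capitals also mark CCCNNGGG, the core of the EBF1 palindrome, 231 bases upstream (11.8% of all windows), and TGTGGT of RUNX factors, as ACCACA, 123 bases upstream (14.0%). Of the genes not shown, Ebf1 held no E-box but, over its 2 windows, the RUNX, ETS and Ikaros letters, and Pax5 held none of the 6 motifs. The Ikaros letters TGGGAA were in none of the 4 windows shown and in 21.6% of all windows. Motif matches could overlap, and a match describes the letters only. GENCODE M21 placed its nearest transcript start 116 bases upstream of the RefSeq start in Cd79a. It lay 73 bases from the RefSeq start in Blnk, and at the same base in Igll1 and Vpreb1. The last 116 bases of the Cd79a window, which hold its GGAAGT match, lay inside the gene as GENCODE bounds it. The whole Blnk and Vpreb1 windows also lay inside their genes, and the Igll1 window lay outside its gene.

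Reads assigned to genes numbered between 46067511 and 54953145 per library, and 1 read was worth 0.904 to 1.04 units of the deposited normalised read count. Phf6 had 5508, 4240 and 5075 normalised reads in WT libraries 1 to 3 and 1781, 2337 and 1755 in KO libraries 1 to 3. T cell markers were abundant in every library, with a sum over the 19 of 20 listed genes analysed of 7524 to 7907 CPM (reads scaled to library size by TMM factors) in WT and 6200 to 6972 in KO. On the first principal component, with 53.1% of the variance, WT library 2 lay nearest to the KO libraries, and leaving it out ended the call of none of the B lineage genes. In these bulk samples a change in the number of cells of a type and a change in RNA per cell cannot be told apart.

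The B lineage genes were scarce in both groups. On the TPM scale, which divides reads by the merged exon length of each gene so that levels of different genes can be compared, the most abundant was Cd79a, with 2.00 ± 0.12 TPM in WT (SD, n = 3), while the T cell receptor gene Cd3e stood at 290.7 ± 16.8 TPM. The order of mean levels in WT was Cd79a, Cd79b (1.31 TPM), Igll1 (0.749), Vpreb1 (0.421), Blnk (0.252), Blk (0.0963), Pax5 (0.0317), Ms4a1 (0.0306) and Ebf1 (0.00947). Cd79a lay above Cd79b in all 3 WT libraries without overlap, as did Igll1 above Vpreb1, Blnk above Blk and Blk above Pax5. The neighbouring pairs Cd79b and Igll1, Vpreb1 and Blnk, Pax5 and Ms4a1, and Ms4a1 and Ebf1 overlapped. In KO the order became Cd79a (4.72 TPM), Cd79b (3.36), Blnk (0.797), Blk (0.792), Igll1 (0.785), Ms4a1 (0.425), Pax5 (0.314), Vpreb1 (0.293) and Ebf1 (0.144). Among KO neighbours only Cd79b and Blnk did not overlap.

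Across the 9 genes, 5 rose in KO, none fell, 2 did not pass the test and 2 had too few reads to enter it. The test was limma on log2(value + 2) over the 17993 genes that reached a value of 10 in 3 or more libraries, at a Benjamini-Hochberg adjusted p under 0.05, and 5.32% of all genes tested rose and 3.43% fell. No tested member fell at an unadjusted p under 0.05 (0 of 7), and edgeR and DESeq2 on the recovered reads called 6 higher and 0 lower each, where edgeR called 5.32% of all genes higher and 2.84% lower and DESeq2 7.39% and 5.03%. Pax5, Blk and Ms4a1 reached a value of 10 in KO libraries only, so they entered the test through the group in which they were high; Cd79a, Cd79b, Blnk and Igll1 were at 10 or more in all 6 libraries. All 3 KO values lay above all 3 WT values for 7 of the 9 genes, against 14.9% of the 23306 named genes. The median log2 fold change of the 7 tested members was 1.51, beside -0.01 for all genes tested.

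**Figure D1:**
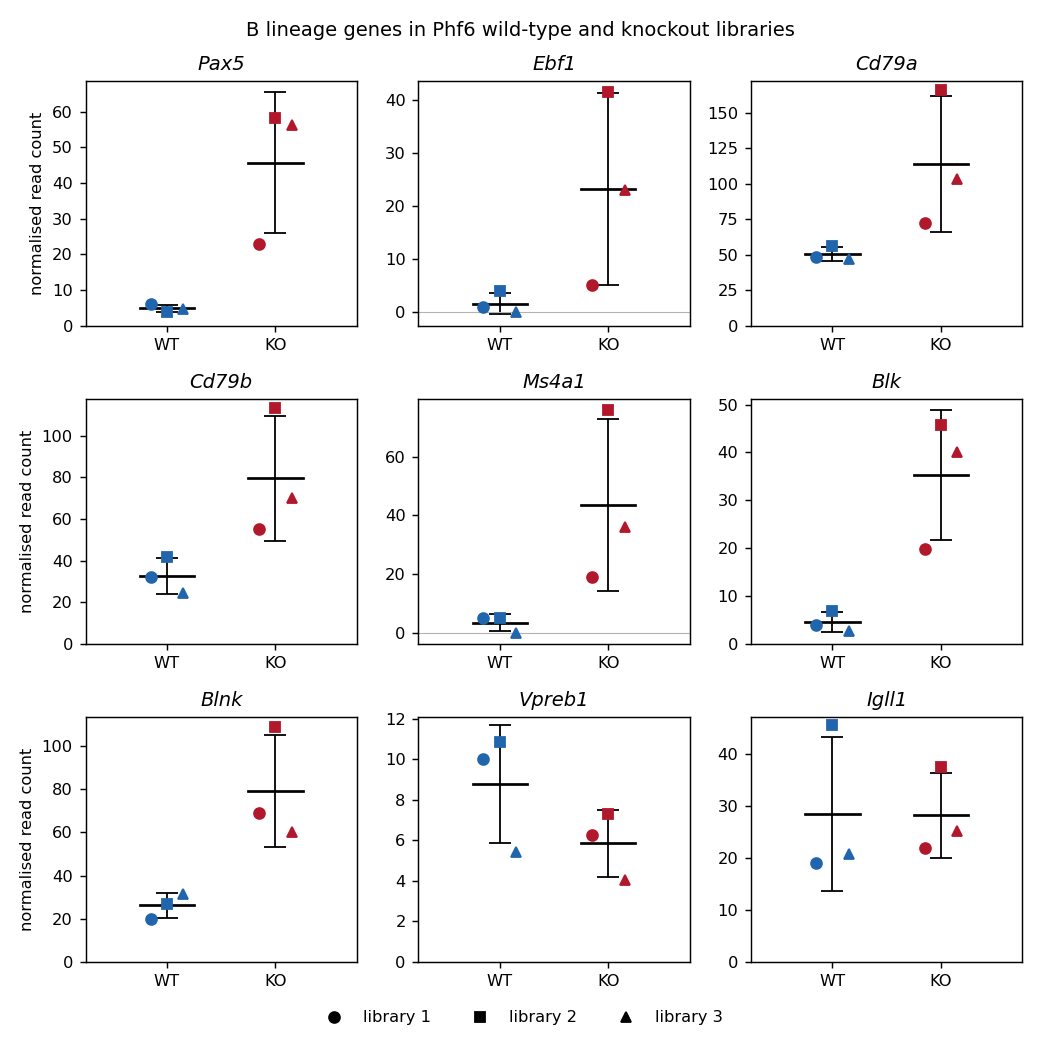
Normalised read count of each of the 9 genes in WT (blue) and KO (red), with 1 point per library, the library number as the marker shape, a bar for the group mean and an error bar for the SD (n = 3). The KO points lie above all WT points in 7 panels and overlap them for Vpreb1 and Igll1, and KO library 2 is the highest KO point in all 9.

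The commitment factors had at most 6 reads per library in WT and up to 56 in KO. Pax5 (ENSMUSG00000014030; GRCm38 chromosome 4, 44524757 to 44710487, minus strand) had normalised read counts of 6.01, 3.95 and 4.52 in WT libraries 1 to 3 and 22.9, 58.2 and 56.2 in KO libraries 1 to 3. The lowest KO library thus lay above the highest WT library by more than the counting error of its 22 reads (exact Poisson 95% interval 13.8 to 33.3 reads, which covers counting error only, against 6 reads in WT library 1). Group means were 4.83 ± 1.06 and 45.8 ± 19.8 (SD, n = 3), and Pax5 rose by 2.71 ± 0.40 on the log2 scale (SE; limma adjusted p = 0.00508). Without KO library 3 the adjusted p was 0.0516, with a log2 fold change of 2.52. Exons of Pax5 overlap 5730488B01Rik and the antisense gene Gm12462 on the opposite strand over 7.18% and 1.41% of their bases, and no source used here gives the strand setting of the counting. The level of Pax5 therefore cannot be told apart from antisense reads at those exons.

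Ebf1 (ENSMUSG00000057098; chromosome 11, 44617317 to 45008091, plus strand) had values of 1.001, 3.95 and 0 in WT libraries 1 to 3 and 5.22, 41.5 and 23.1 in KO libraries 1 to 3. KO libraries 2 and 3 were well above the rest, whereas KO library 1 held 5 reads (exact Poisson 95% interval 1.62 to 11.7) and was not separable from the 4 reads of WT library 2 (1.09 to 10.2). For the count of 0 in WT library 3 the exact Poisson 95% interval reached up to 3.69 reads. Ebf1 missed the filter on low values, with 2 libraries at 10 or more. In a limma fit with no filter it rose by 2.59 ± 0.66 on the log2 scale (SE; adjusted p = 0.0423; 4.43% of the 23306 genes of that fit rose and 2.57% fell), and with a pseudocount of 8 the adjusted p was 0.0759. Leaving out KO library 2 gave a log2 fold change of 2.03 (adjusted p = 0.0990), leaving out WT library 1, WT library 3 or KO library 3 gave adjusted p of 0.181, 0.142 and 0.185 in that fit, and without KO library 1 it was 3.33 (adjusted p = 0.00967).

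The receptor chains were the most abundant of the set and showed smaller fold changes. Cd79a (ENSMUSG00000003379; chromosome 7, 24897381 to 24902197, plus strand) had 48.0, 56.3 and 47.0 normalised reads in WT libraries 1 to 3 and 72.0, 166.2 and 103.3 in KO libraries 1 to 3. Every KO value was above every WT value, but the spread among KO libraries was wide, with library 2 at more than the mean of 113.8 ± 48.0 (SD, n = 3) and library 1 well below it. The log2 fold change was 1.07 ± 0.29 (SE; 95% interval 0.41 to 1.72) and did not pass the test (limma adjusted p = 0.0524). Cd79a was called higher by edgeR (log2 fold change 1.19, adjusted p = 0.0433) and DESeq2 (1.19, adjusted p = 0.00779). It was called by limma with library totals as the scaling (1.15, adjusted p = 0.0421), with upper-quartile scaling (1.10, adjusted p = 0.0472), with no filter (adjusted p = 0.0470) and without KO library 1 (1.35, adjusted p = 0.0292). It was not called with TMM scaling (adjusted p = 0.0514), with either other pseudocount (0.0540 and 0.0518) or with the filters on the mean (0.0531) and on CPM (0.0575). Leaving out WT library 1, 2 or 3 gave adjusted p of 0.169, 0.0549 and 0.138, and leaving out KO library 2 or 3 gave 0.125 (log2 fold change 0.76) and 0.157.

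Cd79b (ENSMUSG00000040592; chromosome 11, 106311341 to 106314762, minus strand) had 32.0, 41.5 and 24.4 normalised reads in WT libraries 1 to 3 and 55.3, 113.2 and 70.2 in KO libraries 1 to 3. The groups did not overlap, and the same KO library was highest as for Cd79a. Cd79b rose from 32.6 ± 8.6 to 79.6 ± 30.1 (SD, n = 3 each), or by 1.20 ± 0.31 on the log2 scale (SE; limma adjusted p = 0.0423). Leaving out any of WT library 1, WT library 3, KO library 2 or KO library 3 ended this call, with adjusted p of 0.134, 0.135, 0.112 and 0.129. Within libraries, the log2 ratio of Cd79a to Cd79b was 0.56, 0.42 and 0.89 in WT and 0.37, 0.55 and 0.54 in KO. These ratios overlapped (difference -0.14; two-sided exact permutation p = 0.4, adjusted over 4 ratios 0.533; 0.1 is the smallest p that 3 against 3 allows).

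The cytoplasmic transducers of the receptor were higher in KO. Blk (ENSMUSG00000014453; chromosome 14, 63372836 to 63417037, minus strand), a SRC-family kinase gene of B cells, had 4.004, 6.91 and 2.71 normalised reads in WT libraries 1 to 3 and 19.8, 45.7 and 40.1 in KO libraries 1 to 3. The lowest KO value was above the highest WT value, and Blk rose by 2.48 ± 0.41 on the log2 scale (SE; limma adjusted p = 0.00825). Without KO library 3 the log2 fold change was 2.35 and the adjusted p 0.0670. Blnk (ENSMUSG00000061132; chromosome 19, 40928927 to 40994535, minus strand), the adaptor that links SYK to phospholipase C gamma, had 20.02, 26.7 and 31.6 normalised reads in WT libraries 1 to 3 and 68.8, 109.1 and 60.2 in KO libraries 1 to 3. Here KO library 3 was the lowest of its group, and all KO values again exceeded all WT values. Blnk rose from 26.1 ± 5.8 to 79.4 ± 26.1 (SD, n = 3 each), or by 1.51 ± 0.29 on the log2 scale (SE; limma adjusted p = 0.0147), and the adjusted p was 0.0663 without WT library 1 and 0.0528 without KO library 3. The within-library log2 ratio of Blnk to Blk was 1.87, 1.69 and 2.84 in WT and 1.70, 1.22 and 0.56 in KO, a difference of -0.97 beside SDs of 0.62 and 0.57 (two-sided exact permutation p = 0.2, adjusted 0.533). The groups overlapped through WT library 2 and KO library 1.

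Ms4a1 (ENSMUSG00000024673; chromosome 19, 11249675 to 11266241, minus strand), which is switched on later in B cell development than the pre-B receptor genes, had 5.005, 4.94 and 0 normalised reads in WT libraries 1 to 3 and 18.8, 75.8 and 36.1 in KO libraries 1 to 3. KO library 2 was about 4 times as high as KO library 1, and both exceeded every WT library. Ms4a1 rose by 3.10 ± 0.62 (SE) on the log2 scale (limma adjusted p = 0.0191), the largest log2 fold change among the 7 tested genes. Its log2 fold change was 2.07 with a pseudocount of 8 and 3.94 with a pseudocount of 0.5, as its WT values are near 0. The call was lost without WT library 1 (adjusted p = 0.0520) and without KO library 3 (adjusted p = 0.0955).

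The surrogate light chain genes did not separate the groups. Igll1 (ENSMUSG00000075370; chromosome 16, 16860671 to 16863985, minus strand) had 19.0, 45.4 and 20.8 normalised reads in WT libraries 1 to 3 and 21.9, 37.4 and 25.1 in KO libraries 1 to 3. The highest value of all was WT library 2, while the other WT libraries lay below all 3 KO libraries, so the groups overlapped through WT library 2. Group means were 28.4 ± 14.8 and 28.1 ± 8.2 (SD, n = 3 each), and the log2 fold change was 0.06 ± 0.37 (SE; limma adjusted p = 0.943). The 95% interval of that log2 fold change, -0.77 to 0.88, does not show that the groups were alike.

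Vpreb1 (ENSMUSG00000059305; chromosome 16, 16868403 to 16870843, minus strand) lies beside Igll1 and had 10.01, 10.9 and 5.42 normalised reads in WT libraries 1 to 3 and 6.26, 7.27 and 4.01 in KO libraries 1 to 3. The groups overlapped, and with 4 to 11 reads per library the counting intervals overlapped as well (1.09 to 10.2 for the 4 reads of KO library 3 and 5.49 to 19.7 for the 11 of WT library 2). Vpreb1 missed the filter, and with no filter its log2 fold change was -0.44 ± 0.40 (SE; limma adjusted p = 0.574). Its level is uncertain, since 19.7% of the 75-base windows of its transcript also occur in its paralog Vpreb2 (not analysed here) and 9.01% of its exon bases overlap Top3b on the opposite strand. For Cd79a 4.48% of such windows occur in another gene, Gm32220, and for the other 7 genes none did. The within-library log2 ratio of Vpreb1 to Igll1 was -0.81, -1.88 and -1.62 in WT and -1.53, -2.09 and -2.17 in KO, and these values overlapped (two-sided exact permutation p = 0.3, adjusted 0.533). That of Pax5 to Ebf1 overlapped too (1.42, 0 and 1.70 in WT, 1.79, 0.47 and 1.21 in KO; exact permutation p = 0.9). Whether Vpreb1 and Igll1 changed less than the genes that rose was not tested.

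**Figure D2:**
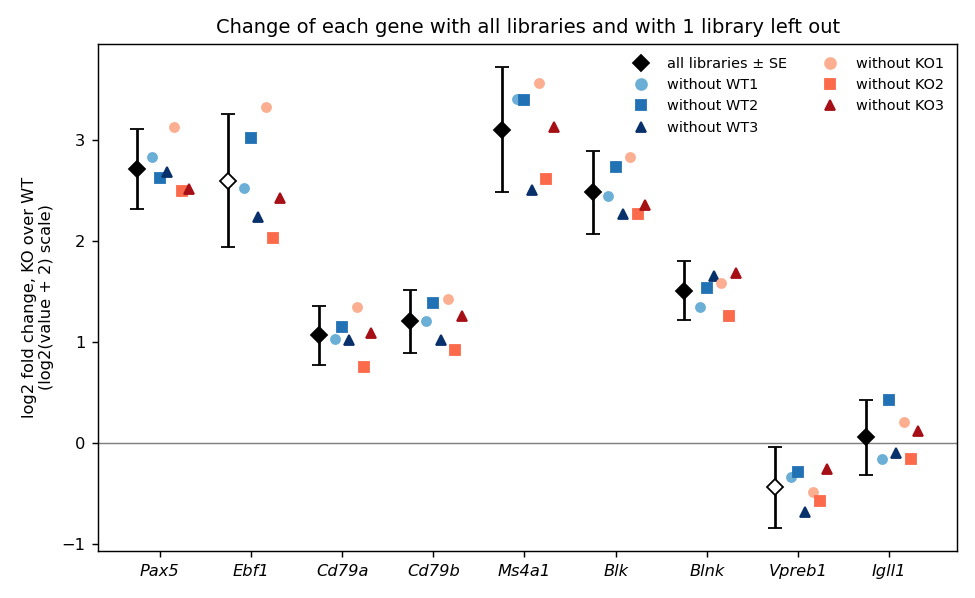
Log2 fold change of KO over WT for each gene on the log2(value + 2) scale, with black diamonds for all libraries and their SE, open diamonds for Ebf1 and Vpreb1 from the fit with no filter, and coloured points with 1 library left out. Ebf1, Cd79a, Cd79b, Ms4a1, Blk, Blnk and Pax5 stay above 0 in every such fit, from 0.76 for Cd79a without KO2 to 3.57 for Ms4a1 without KO1, while the points of Igll1 lie on both sides of 0, from -0.16 to 0.43.

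The KO libraries were not equal for these genes. By normalised read count, KO library 2 was the highest of its group for all 9 genes. The share was 35.4% of all genes tested and 40.1% of the genes that rose. For Pax5, KO libraries 2 and 3 both had 56 reads, and on the TPM scale KO library 3 was higher (0.400 against 0.389). Blk had 44 and 40 reads in KO libraries 2 and 3, and Vpreb1 had 7 and 6 in KO libraries 2 and 1. Those differences are within counting error. KO library 1 was the lowest for 7 of the 9, against 30.3% of all genes tested and 51.6% of those that rose. The summed level of the 9 genes was 2.94, 4.06 and 2.78 CPM in WT libraries 1 to 3 and 5.92, 13.2 and 8.51 CPM in KO libraries 1 to 3. Without WT library 1, 2 of the genes were called, Pax5 (limma adjusted p = 0.0200) and Blk (0.0349), and without KO library 3 none was called, with 6 of the 7 at an unadjusted p under 0.05. In those fits the 2 remaining libraries of a group share the spread estimated with the other group.

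Neutrophil and monocyte markers also differed between the groups. The 20 neutrophil markers summed to 148.0, 553.8 and 240.4 CPM in WT libraries 1 to 3 and to 1501, 1602 and 1218 CPM in KO libraries 1 to 3, and 9 of 20 rose and none fell (0 falls at an unadjusted p under 0.05 and 0 in edgeR and DESeq2). The 17 monocyte and macrophage markers summed to 80.0, 130.6 and 60.9 CPM in WT libraries 1 to 3. In KO libraries 1 to 3 they summed to 189.7, 316.2 and 254.6 CPM, with 6 rises and no fall (0 falls by each of those counts). Among all genes tested 5.32% rose and 3.43% fell. The most abundant neutrophil markers were Ngp and S100a9, and Lyz2 led the monocyte and macrophage markers. The neutrophil sum was highest in KO library 2 and lowest in KO library 3. The sum of the 9 B lineage genes was highest in KO library 2 and lowest in KO library 1. Among the WT libraries, library 2 had the highest neutrophil sum, monocyte and macrophage sum and B lineage sum. Among the KO libraries, the monocyte and macrophage sum was lowest in library 1 and highest in library 2, as was that of the 9 genes. The part of myeloid cells in the B lineage result was not tested.

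Among B cell markers from outside the 9 genes, Cd22, Fcrla and Bank1 rose by 1.99, 1.92 and 2.17 on the log2 scale. Fcrla and Bank1, like Pax5 and Ms4a1, reached a value of 10 in KO libraries only. They entered the test through the group in which they were high. Of the 12 B cell defining markers, 5 of them also among the 9 genes, 9 were tested. Of these 7 rose, Pax5, Cd79b and Ms4a1 included, against 5.32% of all genes, and none fell (0 falls at an unadjusted p under 0.05 and 0 in edgeR and DESeq2), and the sum over all 12, members included, was 3.37 to 3.95 CPM in WT and 6.47 to 16.6 CPM in KO. Cr2 and Fcer2a, receptors of mature B cells, were too scarce for the test, with at most 12.7 and 24.9 normalised reads in any library, and Vpreb3, a pre-B gene, had a log2 fold change of -0.35 (adjusted p = 0.498). Among the defining markers Ms4a1 and Ebf1 were at 0 in a library.

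Plasma cells and plasmacytoid dendritic cells also use B lineage genes, and the sums of their markers overlapped between the groups, each carried by a pair of abundant genes. The 9 of 10 plasma cell markers analysed summed to 250.5 to 311.9 CPM in WT and 223.6 to 285.3 CPM in KO, led by Sdc1 and Xbp1, with 1 rise (Prdm1, 1.26) and 1 fall (Sdc1, -0.60). The 13 of 16 plasmacytoid dendritic cell markers analysed summed to 509.5 to 617.3 CPM in WT and 499.1 to 592.0 CPM in KO, led by Plac8 and Tcf4. Of the 11 tested 4 rose and 1 fell, beside 5.32% and 3.43% of all genes, and 6 of the 13 had all KO values above all WT values, beside 14.9% of named genes. These sums follow their most abundant genes and do not show the scarcer markers. Siglech, a defining receptor of those cells, was near 0, with values of 0, 1.98 and 0 in WT libraries 1 to 3 and 2.09, 2.08 and 5.01 in KO libraries 1 to 3. Its KO values all lay above its WT values, and so few reads do not show whether such cells were present. Erythroid markers summed to 380.2 to 469.3 CPM in WT and 345.9 to 401.7 CPM in KO, led by Tfrc and Hbb-bs, with none of 14 called by limma or edgeR (1 higher at an unadjusted p under 0.05 and 1 in DESeq2). Stromal and endothelial markers summed to 496.3 to 608.7 CPM in WT and 663.8 to 820.5 CPM in KO, so the sums did not overlap. Led by Col1a2 and Pecam1, they had 1 rise and 1 fall among 5 tested. Of the T cell markers, led by Tcf7 and Thy1, 3 of 19 fell and none rose, beside 3.43% and 5.32% of all genes. At an unadjusted limma p under 0.05, 7 were lower and 0 higher. Lower calls numbered 3 in edgeR and 4 in DESeq2, with 0 rises in each. The T cell sum was lower in every KO library than in every WT library. Prdm1, Siglech, Cr2, Fcer2a, Cd22, Fcrla and Bank1 were chosen for mention after their values were seen.

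**Figure D3:**
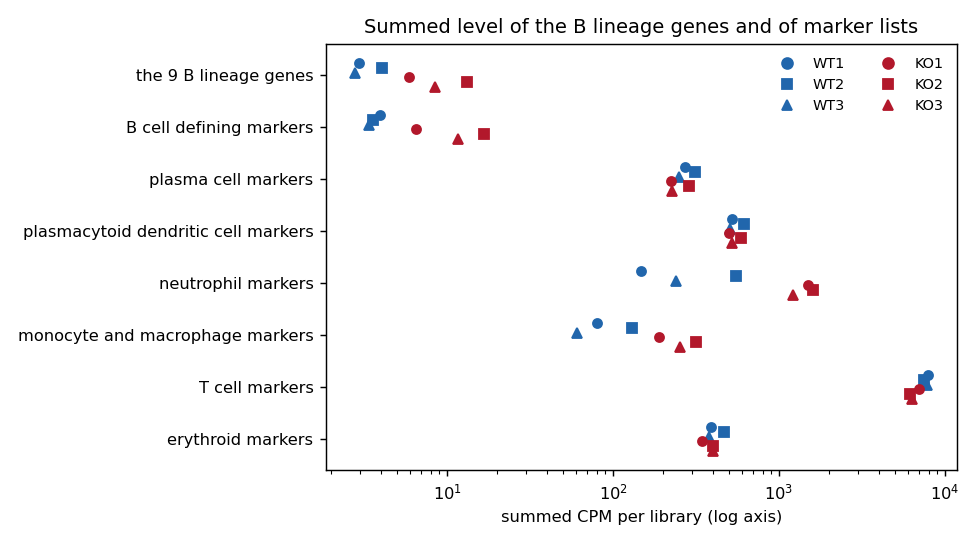
Summed CPM per library, on a log axis, of the 9 B lineage genes and of 7 marker lists, with WT libraries in blue, KO libraries in red and the library number as the marker shape. The 9 genes lie between 2.78 and 13.2 CPM, far below the T cell markers at 6200 to 7907 CPM, and the KO points of the B lineage, neutrophil and monocyte rows lie to the right of the WT points.

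The wider B lineage programme was mixed. Of 24 B lineage transcription factor genes 6 rose and 4 fell, and the median change was -0.01 on the log2 scale, as it was over all genes tested to that digit. Mef2c, which acts in B and myeloid progenitors, rose by 2.55, Spi1, which encodes PU.1 of myeloid and B cells, by 2.29, and Pou2f2, which encodes OCT2, by 1.57. Pou2af1, the OCT co-activator gene, had a log2 fold change of -0.82 and fell, as did Lef1 (-0.37), Ets1 (-0.44) and Runx1 (-0.55), which T cells use as well and which were named after their values were seen. With library totals as the scaling 3 genes of the list fell. Tcf3, the E2A gene that acts upstream of Ebf1, was abundant in both groups, with 16165 to 16618 normalised reads in WT and 13629 to 15475 in KO (log2 fold change -0.19; limma adjusted p = 0.175). The counts beside these were 5.32% rising and 3.43% falling among all genes. Bcl11a, named after its values were seen, is among the rises and reached a value of 10 in KO libraries only. It thus entered the test through the group in which it was high.

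Genes of pre-B and B cell receptor signalling included 12 rises and 2 falls among 31 tested, with a median of 0.15. The rises include Bank1 and Fcrla, which reached a value of 10 in KO libraries only and entered the test through that group. Among all genes tested 5.32% rose and 3.43% fell, with a median of -0.01. Lyn, the SRC-family kinase that phosphorylates the CD79 tails, had 63.1, 144.2 and 70.5 normalised reads in WT libraries 1 to 3 and 296.3, 448.7 and 468.4 in KO libraries 1 to 3. The KO libraries were all higher, and Lyn rose by 2.17 ± 0.32 (SE) on the log2 scale (limma adjusted p = 0.00692). Btk, the kinase downstream of BLNK, rose by 1.96, Plcg2, its phospholipase substrate, by 1.8, and the adaptor genes Pik3ap1 and Dok3 by 1.92 and 1.53. The inhibitory Fc receptor gene Fcgr2b rose by 2.10. Syk, the kinase that binds the CD79 tails, had a log2 fold change of 0.59 and did not pass (adjusted p = 0.0509). The falls were the phosphatase gene Ptpn6 (-0.40) and Nfatc1 (-0.29), named after their values were seen, and with library totals neither fall passed. Spi1, Lyn, Btk, Plcg2, Pik3ap1, Dok3 and Fcgr2b are also expressed by myeloid cells, whose markers are given above.

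Of 15 early B progenitor genes tested, 3 rose and 1 fell, with a median of -0.12, beside 5.32% and 3.43% of all genes. DESeq2 called 3 higher and 3 lower, and 3 were higher and 3 lower at an unadjusted p under 0.05. Bst1, which encodes a surface enzyme, rose by 1.37, Erg, a stem cell factor gene, by 1.44 and Flt3, a progenitor cytokine receptor gene, by 1.47. Dntt, which encodes the polymerase that adds bases at V(D)J junctions, fell by 0.64 on the log2 scale. Among mature B cell genes 6 of 24 tested rose and 1, Pou2af1, fell, with a median of 0.90; DESeq2 called 11 higher and 1 lower. Ly86, a partner of the toll-like receptor homologue CD180, rose by 2.62, Cd180 by 1.83 and Fcmr, the receptor for IgM, by 2.04. Fcmr reached a value of 10 in KO libraries only and entered the test through that group. Which cells gave the rises of Bst1, Ly86 and Cd180 was not tested. Of 4 tested immunoglobulin constant genes, Igkc, the kappa light chain, rose by 1.23 and Ighm, the mu heavy chain, fell by 0.51 on the log2 scale, while Ighd (0.01) and Iglc1 (-0.41) did not pass. The fall of Ighm did not pass with library totals, with upper-quartile factors or in edgeR. Ighm was far more abundant than any of the 9 genes, with 16702 to 20861 normalised reads in WT and 10831 to 14563 in KO.

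**Figure D4:**
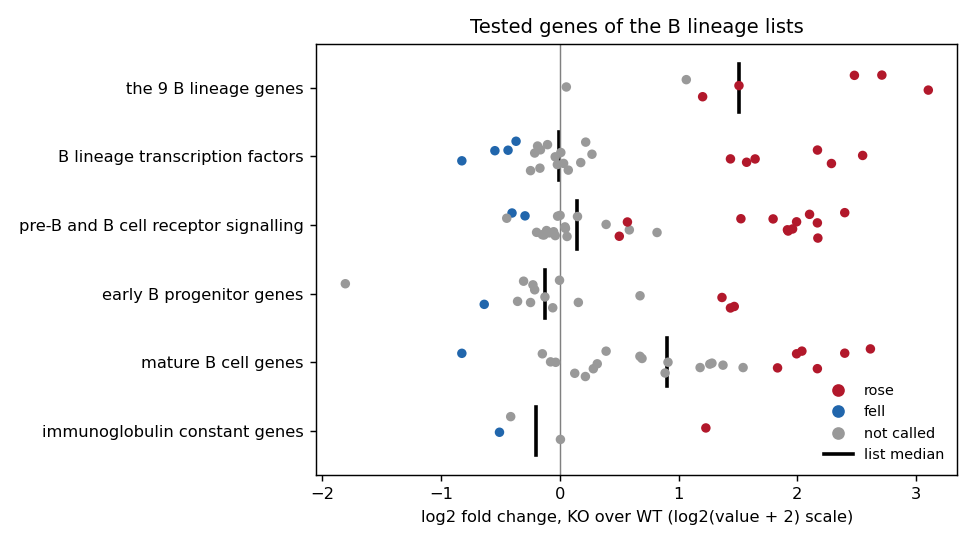
Log2 fold change of KO over WT for the tested genes of the 9-gene set and of 5 wider B lineage lists, 1 point per gene, with rises in red, falls in blue, genes that did not pass in grey and list medians as black bars. The medians run from 1.51 for the 9-gene set through 0.90 for mature B cell genes to -0.20 for immunoglobulin constant genes.

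By shape over the 6 libraries, the tested gene set was compared with Pax5 as the root mean square distance between centred log2(value + 2) profiles. Of 17992 genes, the nearest included Gm15657 (0.28), Rap2b (0.31), Gcnt1 (0.31) and Zfp608 (0.34). Blk ranked 8 at a distance of 0.37. Ms4a1 ranked 224, Blnk 414, Cd79b 532, Cd79a 581 and Igll1 8978. These distances follow both the direction and the size of the group difference and are a description over 6 libraries.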

How the data were processed

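PolyA RNA of 6 tumour samples was sequenced as paired ends of 150 bases. The submitters' processing notes name GRCm38 and the tools bcl2fastq 1.8.4, DESeq2, featureCounts and STAR 2.6.0a. Strand setting and annotation: not given in the sources used here. The values the authors deposited are a signal per gene, namely reads over a library's size factor. The values themselves show it: 100% of them were whole multiples of 1 step per library within 0.01, and dividing by the step gave the reads. Of 23314 rows, 8 without an identifier (at most 0.00106% of reads) were left out, and 23277 of the other 23306 were found in GENCODE M21, which gave positions and exon lengths. Replicate counts differed by 13.1 to 57.5 chi-square units per degree of freedom, more than counting error alone gives, as separate preparations of 1 RNA would too.

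The genes that reached a value of 10 in 3 or more libraries were fitted by limma 3.58.1 (R 4.3.3; trend, robust) on log2(value + 2) with group as the only term. This understates changes of low genes. Alternatives were edgeR 4.0.16 and DESeq2 1.42.0 on the recovered reads, scalings, filters, pseudocounts, a replicate block and each library left out. CPM used TMM factors. The members and gene lists were chosen with earlier results of these data known. The genes named are the 9 members, Phf6, up to 4 genes of smallest p per pathway list, partners of members, the 2 most abundant genes per marker list and the 5 nearest to Pax5; others are marked in the text, and some genes under this rule are not reported here. On simulated counts for 17686 genes, 72 of 100 changes of 2-fold and 35 of 100 of 1.5-fold were recovered, and 4 of 111 calls (3.60%) were false. The changed genes were drawn above a floor on the mean value, and Blk, Ebf1 and Vpreb1 lay below it. These recovery rates therefore do not cover the scarcest members.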

Additional observations from a re-analysis of the deposited data

How the results depend on the processing

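Of the log2 fold changes of the 9 genes under the alternatives, 143 kept their sign and 3 did not. The 3 were Igll1 at -0.15 without KO library 2, -0.16 without WT library 1 and -0.10 without WT library 3, none called. The filters and the replicate block do not alter a gene's limma log2 fold change, so those fits could not change a sign. Cd79a, not called, passed with library totals (1.15), upper-quartile factors (1.10), no filter (1.07), edgeR (1.19) and DESeq2 (1.19). Ebf1 was 3.75 in edgeR and 3.84 in DESeq2, fitted with no filter. With a filter of 1 CPM in 3 libraries, 3 members were tested and 2 called, and mature B cell calls numbered 2; DESeq2 gave 12 of these. Neutrophil marker calls numbered 5 in edgeR and 19 in DESeq2, against 9. Immunoglobulin constant calls numbered 1 in edgeR, with library totals and with upper-quartile factors. With library totals 1213 genes rose and 300 fell, against 957 and 618. The cause of these shifts was not tested, other than fewer genes tested under the CPM filter.

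With 1 library left out, log2 fold changes ranged from 2.49 to 3.13 for Pax5, 0.76 to 1.35 for Cd79a, 0.92 to 1.43 for Cd79b, 2.50 to 3.57 for Ms4a1, 2.26 to 2.83 for Blk, 1.26 to 1.68 for Blnk and -0.16 to 0.43 for Igll1. Called members ranged from 0 to 6 and called genes from 253 (without KO library 3) to 1941 (without WT library 2), with 465 without WT library 1, 665 without WT library 3 and 986 without KO library 2. Calls ranged from 0 to 10 for transcription factors, 4 to 16 for receptor signalling, 0 to 5 for early B progenitor, 0 to 12 for mature B cell and 0 to 2 for immunoglobulin constant genes.

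The replicate block (numbers as pairs) called 2568 genes against 1575 and Cd79a as well (1.07; limma adjusted p = 0.0136). Deviations of same-numbered libraries correlated at 0.01, 0.50 and 0.14 across genes, which are not independent, and not every library correlated best with its own number, so the numbers are not taken as pairs. Depth limits Ebf1 and Vpreb1, with 0 to 40 and 4 to 11 reads per library.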
